A study of Homo sapiens with 4 samples.

Results

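The effect of BORIS siRNA was compared between 2 human colorectal cancer cell lines, gene by gene, to separate what the lines had in common from what differed. For each gene, the control siRNA value was subtracted from the BORIS siRNA value on the log2 scale, once in Caco-2 and once in HCT116. The mean of both effects describes the shared response, and the HCT116 effect minus the Caco-2 effect describes the difference between the lines. A gene was included when its brightest probe set paired with 1 gene symbol, by mean of the 4 arrays, was at or above the array median on at least 1 array of each line. This gave 9855 of 18132 genes. Just inside that limit lay GJA3, at 5.48, 5.41, 7.98 and 7.08 on the 4 arrays, and DRC9, at 4.85, 5.48, 6.27 and 7.29. Just outside lay H2BC21, at 5.16, 5.48, 6.08 and 4.60, and TMEM86A, at 5.48, 5.11, 5.72 and 4.97. Values over 4 arrays are always given in the order Caco-2 control siRNA, Caco-2 BORIS siRNA, HCT116 control siRNA, HCT116 BORIS siRNA.

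Caco-2 and HCT116 are established lines, and the labels name no clone, genotype or passage for either. The 4 groups were Caco-2 with a negative control siRNA, Caco-2 with BORIS siRNA, HCT116 with a negative control siRNA and HCT116 with BORIS siRNA, each for 3 days and each measured on 1 Affymetrix PrimeView array. With 1 array per group, an effect within a line cannot be set against replicate spread, and so few arrays limit the precision. The lines are different cells, so their agreement is not a repeat of one experiment.

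BORIS is the protein of CTCFL, the testis paralog of CTCF. CTCF binds DNA through an array of zinc fingers, holds chromatin loops together with cohesin and separates neighbouring regulatory domains. BORIS can bind many of the same sites, is normally confined to germ cells and is switched on in some tumours. A small interfering RNA lowers its target by cleaving the matching messenger RNA.

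CTCFL itself was too dim to follow. None of its 7 probe sets reached the array median on any array, and the brightest stood at 5.07, 5.09, 5.07 and 4.93. The level that 95% of olfactory receptor probe sets stay under, used as background because these genes are silent in gut cells, was 5.05, 4.80, 5.09 and 5.15. CTCF stood at 9.19, 9.16, 9.03 and 8.70. Of 8 markers of colorectal epithelium, 7 lay above background in Caco-2 and 6 in HCT116; CDX1 was below it on all 4 arrays and VIL1 in HCT116. All 6 fibroblast markers were below background on every array. Of 5 blood markers on the array, PTPRC and CD3E were below it throughout, CD68 and HBB were above it on every array, and LYZ stood at 13.3 and 13.1 in Caco-2 and below background in HCT116. Of 4 endothelial markers, PECAM1 and CDH5 were below it and VWF and KDR above it on every array, and of 4 neuron markers 3 were above it on the Caco-2 control array and 4 on each other array. Their part in the results was not tested. The 24 probe sets of the poly-A spike-in controls, RNAs added to the sample during labelling, stood at -0.07 in Caco-2 and 0.87 in HCT116 as BORIS minus control siRNA, and the 18 hybridization control probe sets at 0.01 and 0.34. Whether and how far the HCT116 effects below carry this difference between their arrays was not tested.

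The effects of the lines overlapped weakly. In bulk RNA, a different share of cells with a message and a different amount per cell cannot be told apart. Effects were more widely spread in HCT116, with an SD over genes of 0.39, than in Caco-2, with 0.25. Over the 9855 genes, whose values share arrays and are no replicates, Pearson's r of both effects was 0.174 and Spearman's coefficient 0.142. In quintiles of mean level, r was 0.12 in the dimmest genes, 0.23 in the next and between 0.16 and 0.22 in the others. By sign alone, 2404 genes (24.4% of those compared) were higher with BORIS siRNA in both lines and 2940 (29.8%) lower in both. Another 2540 (25.8%) were higher in Caco-2 and lower in HCT116, and 1955 (19.8%) the reverse.

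At 1.5-fold, a log2 effect of 0.585, 225 genes were higher (2.28%) and 81 lower (0.822%) in Caco-2, and 392 were higher (3.98%) and 826 lower (8.38%) in HCT116. The HCT116 split leaned less to lower genes after quantile normalization, with 511 higher and 670 lower. With averaged probe sets the counts were 117 and 38 in Caco-2 and 301 and 399 in HCT116, without the filter on dim genes 390 and 292 in Caco-2 and 764 and 1141 in HCT116, and with 16 added on the linear scale 147 and 33 in Caco-2 and 319 and 670 in HCT116. The genes higher in both lines numbered 47 (0.477%), which is 20.89% of the Caco-2 list and 11.99% of the HCT116 list. The genes lower in both numbered 17 (0.173%), which is 20.99% and 2.06%. At 2-fold, 2 genes were higher in both (0.0203%) and 0 were lower (0.0%).

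**Figure D1:**
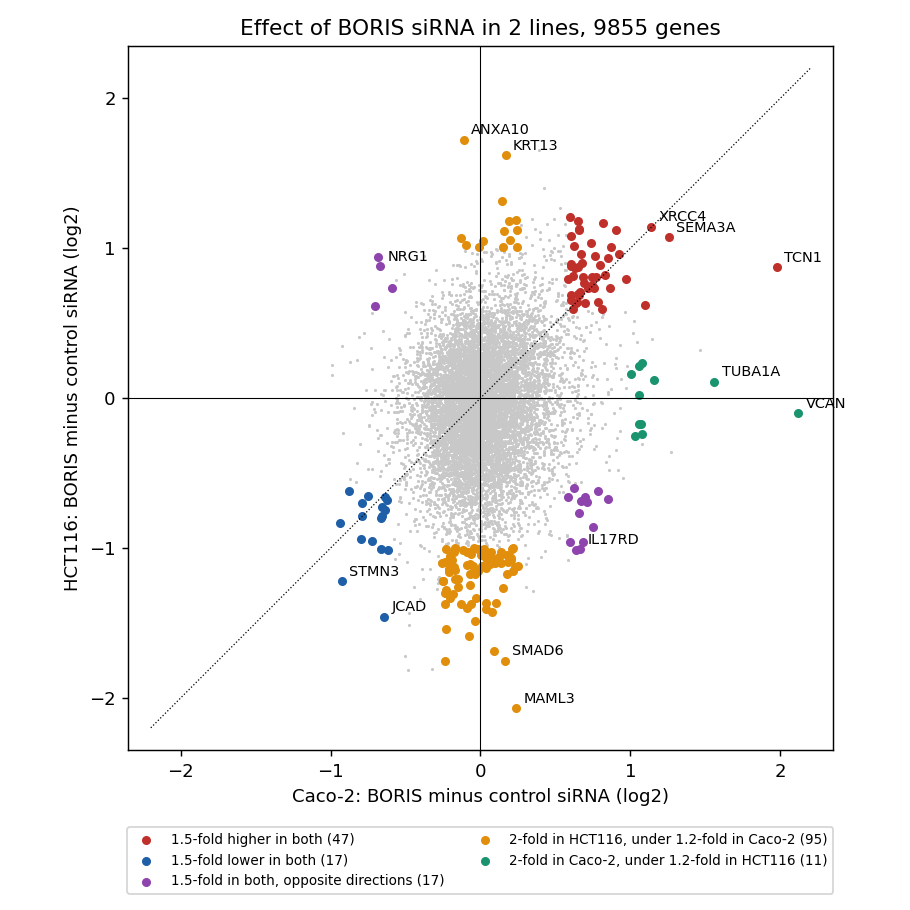
BORIS minus control siRNA on the log2 scale in Caco-2 (x axis) and HCT116 (y axis), each point 1 of 9855 genes from 1 array per group; colours mark genes past the stated folds and the dotted line marks equal effects. Of the coloured genes, 47 lie in the upper right and 17 in the lower left, while 95 genes lie far from 0 on the HCT116 axis alone.

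No gene was called by the test of a shared effect. The limma fit over the 4 arrays, with cell line as a block, tested 11165 genes expressed in at least 1 line and called 0. Its lowest limma adjusted p was 0.769. Before adjustment, 670 of the genes tested had a limma p under 0.05, where 558.2 would be expected with no effect in any gene. Its single residual degree of freedom is the disagreement between the lines. For TCN1 the fitted mean effect was 1.43 with a standard error of 0.28, and for STMN3 -1.08 with a standard error of 0.19, both with a limma adjusted p of 0.769. After quantile normalization limma called 82 genes, 44 higher and 38 lower (0.734% of 11166), among them 32 of the 64 genes past 1.5-fold in both lines. After a loess correction of each effect on mean expression it called 112, 62 higher and 50 lower, which included all 82 and 37 of the 64. In limma, the variance of a gene is moderated by a variance pooled over genes, whose weight is given as prior degrees of freedom. These were 5.49 on the deposited values, 158 after quantile normalization and infinite after loess, each beside 1 residual degree of freedom. After both scalings the pooled variance was thus taken as almost or wholly known. The calls depended on how the arrays were scaled, and all folds below are descriptions.

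The genes highest in both lines belonged to unlike pathways. XRCC4, the scaffold of the ligase that seals broken DNA ends, stood at 6.79, 7.93, 8.74 and 9.89. Both BORIS arrays lay above their controls, by 1.14 in Caco-2 and by 1.15 in HCT116, although the line levels differed. Its 2 other bright probe sets were also higher, between 0.86 and 1.11 in Caco-2 and between 1.04 and 1.12 in HCT116. SEMA3A, a secreted guidance cue, stood at 7.73, 8.98, 5.59 and 6.66. It was higher by 1.25 and 1.07, while its other bright probe set gave 1.15 in Caco-2 but 0.15 in HCT116, so the HCT116 size rests on 1 probe set. TCN1, a carrier of cobalamin, stood at 6.71, 8.69, 7.15 and 8.03. Its effect in Caco-2, 1.98, exceeded that in HCT116, 0.87, by 1.10.

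Of the 30 measured genes of the endoplasmic reticulum folding list, 2 were among the 47, MESD and GANAB, while the list's median mean effect was -0.019. MESD, the chaperone of lipoprotein receptors, stood at 8.24, 9.16, 8.02 and 8.98, with effects of 0.92 and 0.96. GANAB, the catalytic subunit of the glucosidase that trims new glycoproteins, stood at 9.31, 10.14, 8.70 and 9.52, with effects of 0.83 and 0.82. The other 4 bright probe sets of GANAB and the other 2 of MESD had the same sign in both lines, but as a mean over all probe sets the mean effect of MESD was 0.51. STX12, an endosomal syntaxin, stood at 7.20, 7.99, 7.85 and 8.74, and EXOC5, a subunit of the exocyst tether, at 8.20, 8.83, 8.62 and 9.25. EXOC5 differed by 0.63 in each line, and all 5 of its other bright probe sets were higher in both. The disulfide isomerase gene TMX3 had effects of 0.61 and 0.66, with 2 of its 4 other bright probe sets agreeing. The Golgi mannosidase gene MANEA had 0.69 and 0.77, and BICD2, which links dynein to its cargo, 0.65 and 0.69. The 4 other bright probe sets of BICD2 were higher in both lines, between 0.35 and 0.72 in Caco-2 but between 0.04 and 0.41 in HCT116.

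Among the other genes of the 47, SMARCA1, a remodelling ATPase, stood at 8.60, 9.32, 9.36 and 10.10, with all 4 other bright probe sets higher in both lines. SUV39H2, a histone methyltransferase of silent chromatin, stood at 8.31, 9.05, 7.79 and 8.60, and LCOR, a nuclear receptor corepressor, at 8.30, 9.06, 6.92 and 7.65. In each of these genes the BORIS array exceeded its control by 0.72 to 0.81, and the lines differed by at most 0.06. These genes were not on the chromatin and DNA methylation list, of whose 43 measured genes 0 were among the 47. RESF1, a silencer of retroelements, was higher by 0.66 and 1.13, and the histone gene H2BC5 by 0.78 and 0.64. Others were the kinase gene MAPK6, with 0.66 and 0.69, ARHGAP18 with 0.74 and 0.76, ARRDC3, an arrestin-domain adaptor of receptor turnover, with 0.64 in each line, and BTC, a ligand of the epidermal growth factor receptor, with 0.62 and 0.60. The calcium-binding protein gene S100A2 stood at 6.66, 7.32, 8.24 and 9.36.

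For 8 of the 47 genes 1 control array lay below background, so the effect in that line is a lower bound. GPNMB, a glycoprotein of lysosomes, stood at 4.77, 5.62, 6.35 and 7.29, which is at least 0.57 in Caco-2 and 0.94 in HCT116. FANK1 was higher by at least 0.67 in Caco-2 and by 0.62 in HCT116. In the same way CRYZL1 had at least 0.50 and DRC9 at least 0.43 in Caco-2, and in HCT116 NOSTRIN had at least 0.63, CIRSR at least 0.83, ZNF572 at least 0.55 and ZNF91 at least 0.46. The remaining shared genes higher in both lines were ABCA10, AMN1, ANKRD22, HABP4, MFN1, PBLD, PIERCE1, TBC1D8B, TTC33 and WBP4, with effects of 0.60 to 0.87 in Caco-2 and 0.60 to 1.18 in HCT116.

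Zinc finger genes made up 11 of the 47 genes higher in both lines. Proteins of the ZNF series bind DNA through tandem zinc fingers, and many carry a KRAB domain that recruits silencing complexes to transposable elements. These 11 with a ZNF symbol are 23.4% of the 47, beside 230 of the 9855 (2.33%), and 0 of the 17 genes lower in both lines have one. ZNF267 stood at 5.94, 6.75, 6.70 and 7.86, and ZNF83 at 7.65, 8.39, 6.92 and 7.96, both with a second bright probe set of the same sign. ZNF184 stood at 6.63, 7.60, 6.60 and 7.40, and ZNF180 at 6.73, 7.33, 6.16 and 7.37. ZNF84 had effects of 0.87 and 1.01, but its second bright probe set did not have the same sign in both lines. The others were ZNF17 with 0.61 and 1.08, ZNF616 with 0.66 and 0.71, ZNF761 with 0.59 and 0.80 and the pseudogene ZNF271P with 0.61 and 0.89, beside ZNF572 and ZNF91 above. Related zinc finger messages can share probes. When only probe sets outside the _x_at and _s_at classes were used, the mean effect of ZNF267 was 0.78 and that of ZNF91 0.23, and neither was counted among the shared genes, while ZNF271P and ZNF761 have no such probe set.

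Over all 230 measured ZNF genes, 107 were higher and 45 lower in both lines, with median effects of 0.15 in Caco-2 and 0.071 in HCT116, beside 0.001 and -0.05 for all genes compared. Of the 44 genes at 2-fold or more higher in HCT116 (0.446%), 7 have a ZNF symbol (15.91%), and of the 22 in Caco-2 (0.223%), 0 do. Of the shared ones, 10 have a protein-coding entry in RefSeq and 6 of these lie on chromosome 19, the home of large zinc finger gene clusters, beside 90 of the 227 compared ZNF genes with such an entry. ZNF616 and ZNF83 have 11 protein-coding genes between them there, ZNF83 and ZNF761 have 23, and the other neighbouring pairs have 131 to 318.

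Of the 17 genes lower in both lines, STMN3, a tubulin-binding stathmin of neurons, stood at 6.00, 5.08, 9.25 and 8.03. Its effects were -0.93 and -1.22, a mean of -1.08. That mean was -0.63 when its probe sets were averaged, -0.31 without _x_at and _s_at probe sets and -0.51 with 16 added on the linear scale, and under these 3 settings STMN3 missed the level filter, so it was not counted; it was past 1.5-fold in both lines under the other 5. JCAD, a junction protein, stood at 6.30, 5.65, 6.73 and 5.27, an effect of -0.64 and -1.46. Of its 2 other bright probe sets 1 had the same signs, and their Caco-2 effects ran from -0.35 to 0.345. JCAD was not counted with averaged probe sets or with 16 added on the linear scale. FAHD2B stood at 6.66, 5.73, 6.40 and 5.56. MICB, a stress ligand seen by natural killer cells, stood at 7.96, 7.24, 9.89 and 8.94, and its 3 other bright probe sets were lower in both lines. ANGPTL4, an inhibitor of lipoprotein lipase, stood at 5.71, 4.92, 8.69 and 7.75, so it was far brighter in HCT116 but lower with BORIS siRNA by a like amount in each, -0.80 and -0.94.

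Among regulators of transcription, NFYC, a subunit of a promoter-binding complex, stood at 8.21, 7.59, 7.91 and 6.89 and CTBP2, a corepressor, at 10.99, 10.35, 10.49 and 9.75. All 5 other bright probe sets of NFYC and all 6 of CTBP2 were lower in both lines. NFATC1, a factor activated by calcium, had effects of -0.66 and -1.01, and the NF-kB-inducing kinase gene MAP3K14 -0.66 and -0.80. BAMBI, a decoy receptor of TGF-beta signalling, stood at 10.90, 10.24, 7.84 and 7.12. TRIAP1, an apoptosis inhibitor induced by p53, stood at 10.12, 9.33, 10.73 and 10.03, and the metallothionein gene MT1X at 9.48, 8.60, 10.82 and 10.20. The remaining genes were TMEM64 with -0.79 in each line, ITPKA with -0.65 and -0.79, MCAM with -0.75 and -0.65, B4GAT1 with -0.64 and -0.66 and the small nucleolar RNA host SNHG9 with -0.62 and -0.68.

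Other probe sets of these genes mostly had the same signs. Of the 47 genes, 25 have other probe sets at or above the array median in both lines, and 48 of these 51 probe sets were higher in both. Of the 17 lower genes, 7 have such probe sets, and 21 of 22 were lower in both. Over all genes compared, 58.1% of 11832 other probe sets had the sign of the main one in both lines. These probe sets were read on the same arrays and are not replicates. The 47 and the 17 genes were picked for effects of 1.5-fold or more in both lines. A higher share of like signs than over all genes therefore comes with that choice and is no evidence of a shared effect. Under all 8 other settings of the values (other filters, scalings, probe set choices and floors, where a gene that missed the filter counts as lost), 11 of the 47 stayed at 1.5-fold or more in both lines: ARHGAP18, GANAB, H2BC5, LCOR, MAPK6, SEMA3A, STX12, TCN1, XRCC4, ZNF83 and ZNF184. Of the 17, B4GAT1, BAMBI, MICB and TMEM64 did.

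**Figure D2:**
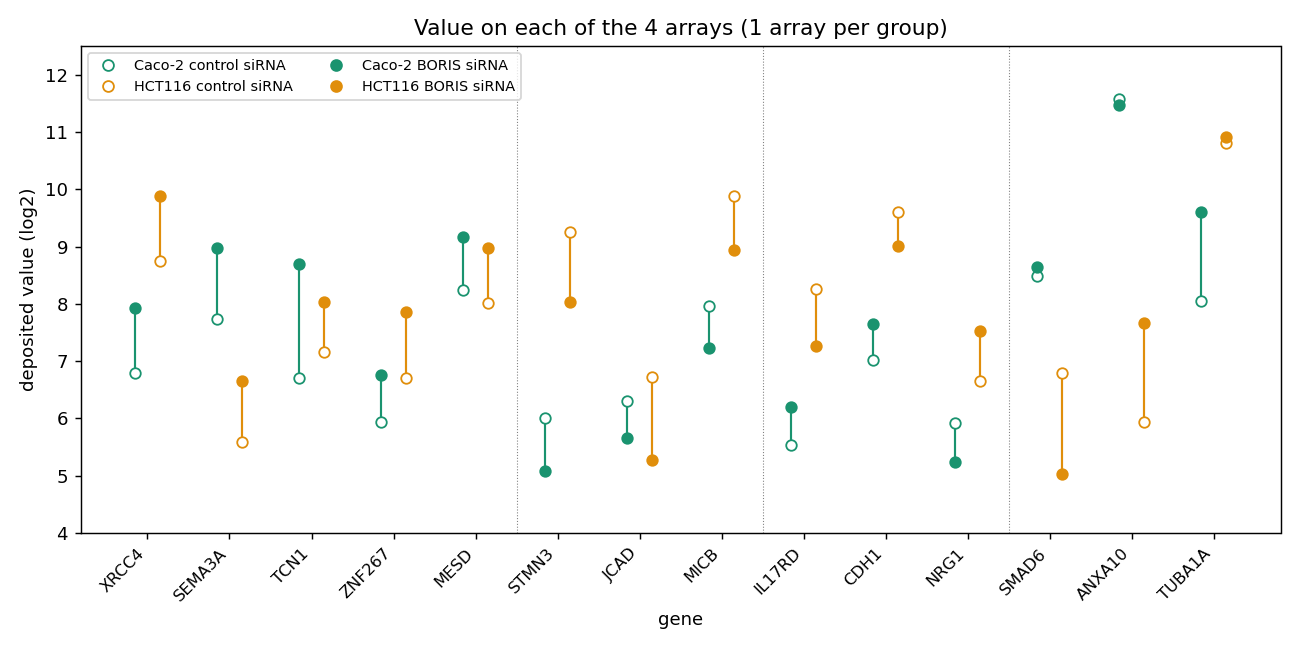
Deposited log2 value of 14 genes on each of the 4 arrays, control siRNA as open and BORIS siRNA as filled circles; dotted lines part genes higher in both lines, lower in both, opposite, and far from 0 in 1 line. XRCC4 is higher by 1.14 and 1.15 from different starting levels, while CDH1 and IL17RD have effects of opposite sign in the lines.

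Promoters are shown for 4 shared genes, 2 from each direction, because CTCF takes its name from repeats of CCCTC and BORIS shares its DNA-binding domain. The sequences are from RefSeq on GRCh38.p14, run from 250 bases before to 50 bases after the gene start, and capitals mark CCCTC or its reverse complement GAGGG. XRCC4 lies on the plus strand at chr5:83077297-83077596, ZNF267 on the plus strand at chr16:31873557-31873856, STMN3 on the minus strand at chr20:63652717-63653016 and ANGPTL4 on the plus strand at chr19:8363905-8364204.
XRCC4: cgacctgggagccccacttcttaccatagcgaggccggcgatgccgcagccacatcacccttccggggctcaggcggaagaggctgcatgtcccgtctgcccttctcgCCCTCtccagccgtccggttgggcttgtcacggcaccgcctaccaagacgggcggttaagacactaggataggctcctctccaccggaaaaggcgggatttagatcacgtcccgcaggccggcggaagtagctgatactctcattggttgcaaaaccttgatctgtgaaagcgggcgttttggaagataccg
ZNF267: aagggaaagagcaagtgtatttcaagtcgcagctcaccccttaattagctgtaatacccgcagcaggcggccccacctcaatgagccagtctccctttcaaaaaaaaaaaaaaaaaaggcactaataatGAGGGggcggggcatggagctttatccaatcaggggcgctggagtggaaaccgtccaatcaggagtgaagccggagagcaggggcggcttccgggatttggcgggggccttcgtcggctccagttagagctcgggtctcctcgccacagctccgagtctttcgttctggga
STMN3: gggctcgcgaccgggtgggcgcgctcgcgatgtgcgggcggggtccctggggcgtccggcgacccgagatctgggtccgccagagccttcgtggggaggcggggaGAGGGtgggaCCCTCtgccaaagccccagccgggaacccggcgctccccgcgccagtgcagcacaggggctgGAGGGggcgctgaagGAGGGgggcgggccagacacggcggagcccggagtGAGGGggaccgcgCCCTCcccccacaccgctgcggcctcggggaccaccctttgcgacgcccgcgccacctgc
ANGPTL4: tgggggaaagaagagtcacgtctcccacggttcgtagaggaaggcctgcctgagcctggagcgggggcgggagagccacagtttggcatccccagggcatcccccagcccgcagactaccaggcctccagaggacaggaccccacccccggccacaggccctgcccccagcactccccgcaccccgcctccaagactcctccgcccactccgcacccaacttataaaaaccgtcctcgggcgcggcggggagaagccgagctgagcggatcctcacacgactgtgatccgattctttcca
The motif occurs 1 time in XRCC4, 1 time in ZNF267, 6 times in STMN3 and 0 times in ANGPTL4, and the windows hold 24, 16, 35 and 20 CG pairs. Of the genes higher in both lines with a promoter in the table, 35 of 44 (79.55%) hold it, and of those lower in both 12 of 14 (85.71%). The share was 80.06% among 8211 promoters of all genes compared and 70.35% among all 27305 promoters of the table. The share in the shared genes lay near that of all genes compared.

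Genes at 1.5-fold or more in both lines but in opposite directions numbered 17. In 13 (0.132%) BORIS siRNA was higher in Caco-2 and lower in HCT116, and in 4 (0.0406%) the reverse; 0 genes did so at 2-fold (0.0%). After quantile normalization these counts were 8 and 5, and after the loess correction 10 and 5. IL17RD, which dampens fibroblast growth factor signalling, stood at 5.54, 6.20, 8.27 and 7.26, and SORL1, a sorting receptor, at 8.62, 9.31, 9.12 and 8.16. In both genes the control arrays put HCT116 above Caco-2, and BORIS siRNA brought the lines closer or reversed their order. CDH1, the epithelial adhesion molecule E-cadherin, stood at 7.01, 7.64, 9.61 and 9.01. CXCL8, the chemokine of neutrophils, stood at 8.89, 9.60, 9.58 and 8.89, with both other bright probe sets of the same signs. CMTM3 stood at 6.37, 7.22, 8.57 and 7.89, and CMTM3 and CXCL8 were the 2 that kept this pattern under all 8 other settings.

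Among the other genes higher in Caco-2 and lower in HCT116, SVIL, which anchors actin to membranes, stood at 7.02, 7.68, 7.61 and 6.85, and its 5 other bright probe sets had the same signs. AFAP1, an actin filament adaptor, had effects of 0.59 and -0.66, and the microtubule-severing gene KATNAL1 0.67 and -0.69. TNRC6C, a partner of Argonaute proteins, had 0.59 and -0.96, PDE9A, a cyclic GMP phosphodiesterase, 0.70 and -0.66, and LRBA, a vesicle protein, 0.78 and -0.62. CCDC9B had 0.75 and -0.86 and FAM43A 0.64 and -1.01. In the reverse direction NRG1, a ligand of ERBB receptors, stood at 5.91, 5.24, 6.65 and 7.53. The keratin-associated KRTAP5-2 had -0.68 and 0.94, the ganglioside synthase gene B4GALNT1 -0.59 and 0.74 and ZNF358 -0.71 and 0.61. None of these 4 was counted in the group when the probe sets of a gene were averaged or when 16 was added on the linear scale.

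More genes had a lower effect in HCT116 than in Caco-2 than the reverse. The HCT116 effect lay 1 or more below the Caco-2 effect on the log2 scale in 206 genes (2.09%) and 1 or more above it in 43 (0.436%). After quantile normalization these counts were 135 and 75, and after the loess correction 142 and 62. With 1 array per group no test of a difference between the lines is possible, because the fit leaves no residual. Genes at 2-fold or more in HCT116 and under 1.2-fold in Caco-2 numbered 14 higher (0.142%) and 81 lower (0.822%), or 33 and 55 after quantile normalization and 28 and 54 after loess. The converse for Caco-2 held for 11 higher genes (0.112%) and 0 lower (0.0%).

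Among the genes lower in HCT116 alone, SMAD6, an inhibitor of bone morphogenetic protein signalling, stood at 8.49, 8.65, 6.79 and 5.04. Its HCT116 effect was -1.64 or lower because its last value is below background. The other bright probe set of SMAD6 had effects of -0.48 in Caco-2 and -0.13 in HCT116, so there Caco-2 was the line with the lower effect. SKIL, a repressor of SMAD factors, stood at 7.74, 7.83, 6.19 and 4.50, an effect of -1.03 or lower, and its other bright probe set was at -1.39. MAML3, a coactivator of Notch, stood at 6.31, 6.55, 5.50 and 3.43, an effect of -0.35 or lower, and the DNA methyltransferase gene DNMT3A at 7.39, 7.54, 5.56 and 4.29, an effect of -0.40 or lower. ETS1, a transcription factor, stood at 8.15, 8.23, 8.11 and 6.68, and the kinase gene PRKCA at 8.04, 7.97, 8.55 and 6.96. In both genes the HCT116 BORIS array alone stood apart from the other 3. APOBEC3B, a cytidine deaminase, stood at 10.57, 10.33, 9.40 and 7.64, the semaphorin receptor gene PLXND1 at 7.81, 7.77, 6.78 and 5.30, the nucleoside transporter gene SLC29A2 at 6.99, 7.10, 6.73 and 5.36 and the cytochrome gene CYP2S1 at 6.39, 6.43, 6.72 and 5.31. The other bright probe sets of PLXND1, SLC29A2 and CYP2S1 did not have the same signs in both lines. In HCT116 they stood at -0.34 for PLXND1, between 0.02 and 0.17 for SLC29A2 and at -0.19 for CYP2S1. The 2-fold HCT116 effect of each of these 3 genes thus rests on 1 probe set. Over the 81 genes, the median HCT116 effect was -1.10 and that of the next brightest probe set, where there was one, -0.78.

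Among the genes higher in HCT116 alone, ANXA10, a gastric annexin, stood at 11.57, 11.46, 5.94 and 7.67, and NR0B2, a nuclear receptor without a DNA-binding domain, at 9.03, 8.90, 5.27 and 6.34. Both were bright in Caco-2 with either siRNA, and in HCT116 the BORIS array lay nearer to that level than the control array. KRT13, a keratin of stratified epithelium, stood at 5.32, 5.49, 5.36 and 6.98, and GLIPR1 at 5.32, 5.48, 6.29 and 7.41. C12orf60 was higher by 1.31, ZNF204P by 1.19 and KBTBD3 by 1.01. From controls below background, IRX2 was higher by at least 0.76, GRAMD1B by at least 0.71 and ARPIN by at least 0.46. None of these 10 has a second bright probe set.

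Among the genes higher in Caco-2 alone, VCAN, the matrix proteoglycan versican, stood at 3.89, 6.01, 9.20 and 9.10, at least 0.97 in Caco-2. Its 2 other bright probe sets had the same signs, between 0.24 and 1.72 in Caco-2 and between -0.53 and -0.08 in HCT116. TUBA1A, an alpha-tubulin, stood at 8.04, 9.60, 10.81 and 10.92, and HAS3, a hyaluronan synthase, at 7.09, 8.13, 10.79 and 10.54. On the main probe sets of these 3 genes, HCT116 was the brighter line and differed by 0.25 or less between siRNAs. GULP1, an engulfment adaptor, stood at 5.84, 6.99, 9.58 and 9.70, and ADGRF1, an adhesion receptor, at 7.51, 8.57, 9.55 and 9.76. The other bright probe set of GULP1 stood at 1.01 and -0.02, but that of ADGRF1 at 0.68 in Caco-2 and 0.57 in HCT116, a like size in both lines. MEX3B, an RNA-binding protein, had effects of 1.07 and -0.17 and PLCB1, a phospholipase, 1.06 and -0.18. DOCK4, an activator of Rac, had 1.06 and 0.02 and PHACTR2 1.0 and 0.16. The 4 other bright probe sets of PHACTR2 lay between 0.43 and 0.70 in Caco-2 and between 0.15 and 0.50 in HCT116. IGIP was higher by at least 0.47 in Caco-2.

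Gene lists are given by their counts and medians, and no difference between the lines was tested. The limma test of the shared effect called 0 members of any list on the deposited values. Mitochondrial ribosomal proteins, which translate the messages of the organelle, had median effects of -0.125 in Caco-2 and 0.17 in HCT116, and 46 of 74 were lower in Caco-2 and higher in HCT116, beside 1955 of the 9855 genes compared. Over the 9 settings, the median lay between -0.146 and -0.111 in Caco-2 and between 0.154 and 0.186 in HCT116. MRPL1 stood at 9.40, 9.27, 10.30 and 10.95, MRPL22 at 10.99, 10.88, 10.53 and 11.19 and MRPS28 at 9.57, 9.27, 10.22 and 10.78. Subunits of oxidative phosphorylation had medians of -0.055 and 0.15, with 32 of 73 in that quadrant. ATP5MC1, a subunit of the ATP synthase ring, stood at 9.73, 9.17, 10.42 and 10.70, and NDUFB1 of complex I at 10.93, 10.78, 11.13 and 11.58. Cytosolic ribosomal proteins had medians of -0.008 and 0.069. Each of these 3 lists had members past 1.5-fold in HCT116, such as MRPS33 at 0.75, NDUFA5 at 0.74 and RPL26L1 at 0.90. Still, in 0 genes of the 3 lists did the effects of the lines differ by 1 or more.

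**Figure D3:**
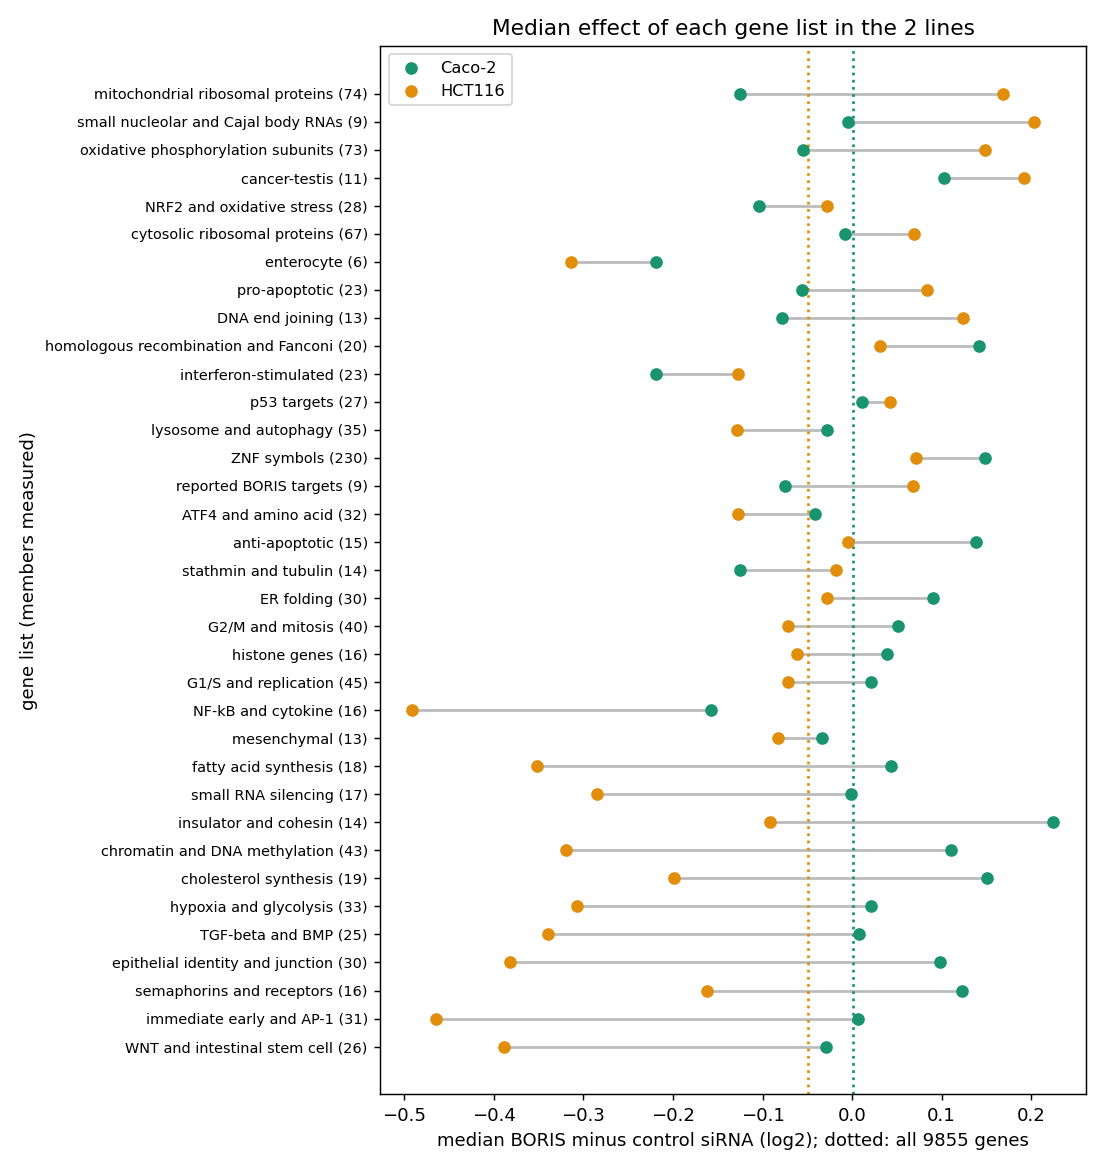
Median BORIS minus control siRNA (x axis, log2) of gene lists with at least 5 genes measured (y axis, number of genes in brackets), Caco-2 in green and HCT116 in orange, 1 array per group; dotted lines mark the medians of all 9855 genes, 0.001 and -0.05. Mitochondrial ribosomal proteins run from -0.125 to 0.17 and epithelial genes from 0.098 to -0.38.

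In other lists Caco-2 was the line with the higher effect. Epithelial identity and junction genes had medians of 0.098 and -0.38, and 17 of 30 were higher in Caco-2 and lower in HCT116, beside 2540 of all genes. TJP1, a scaffold of tight junctions, stood at 9.50, 9.74, 10.14 and 9.53 and ST14, a surface protease, at 10.07, 10.16, 9.65 and 8.89. The epithelial factor gene ELF3 stood at 8.92, 8.96, 9.46 and 8.66. The other bright probe set of TJP1 had the same signs, as did 1 of 2 of ELF3. That of ST14 was lower in both lines, at -0.18 and -0.29. Claudin CLDN4, at 10.45, 10.35, 9.85 and 9.01, was lower in both. Chromatin and DNA methylation genes had medians of 0.11 and -0.32, with 22 of 43 in that quadrant. The acetyltransferase gene CREBBP stood at 9.35, 9.43, 9.36 and 8.29, with 1 of 4 other bright probe sets of the same signs. ARID1A, a remodelling subunit, stood at 8.86, 8.94, 9.14 and 8.35 and the methyltransferase gene SETD2 at 8.25, 8.40, 8.83 and 8.08. The other bright probe set of ARID1A had the same signs, but that of SETD2 was lower in both lines, at -0.11 and -0.24. Cholesterol synthesis genes had medians of 0.15 and -0.20, with 10 of 19 in that quadrant, and the reductase gene DHCR7 stood at 9.83, 10.05, 9.03 and 7.88.

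CTCF works with cohesin, and the 14 measured genes of that group had medians of 0.225 and -0.092, with 7 higher in Caco-2 and lower in HCT116. STAG1, a cohesin subunit, stood at 8.57, 8.81, 8.05 and 7.53, and SMC1A at 10.45, 10.64, 9.40 and 8.88. The 2 other bright probe sets of STAG1 had the same signs. Only 1 of 2 did for SMC1A, whose HCT116 effects there were between -0.85 and 0.09. STAG2, at 9.59, 9.94, 8.99 and 9.30, was instead higher in both lines with all 3 other bright probe sets. The signs of the medians of these 4 lists held under all 9 settings. For TGF-beta and bone morphogenetic protein genes the HCT116 median was -0.34. In 6 of these 25 genes the HCT116 effect lay 1 or more below the Caco-2 effect, beside 206 of the 9855 genes compared. Beside SMAD6 and SKIL, the 6 genes included the receptor gene BMPR2, at 6.40, 7.16, 7.77 and 7.43, and ID2, at 9.87, 9.73, 10.08 and 8.87. Immediate early genes had a median of -0.465 in HCT116, where 30 of 31 were lower beside 5489 of the 9855 genes compared, and 0.007 in Caco-2, a value whose sign turned under other settings. EGR1 stood at 8.61, 8.37, 9.0 and 7.91, and DUSP5, which switches off ERK kinases, at 8.32, 8.33, 10.80 and 9.69. Small RNA silencing genes had medians of -0.001 in Caco-2, where 10 of 17 were lower, and -0.285 in HCT116, where 16 of 17 were, beside 4899 and 5489 of all genes, with DICER1 at 8.22, 8.19, 8.51 and 7.66 and TNRC6A at 8.81, 8.33, 9.36 and 7.93.

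**Figure D4:**
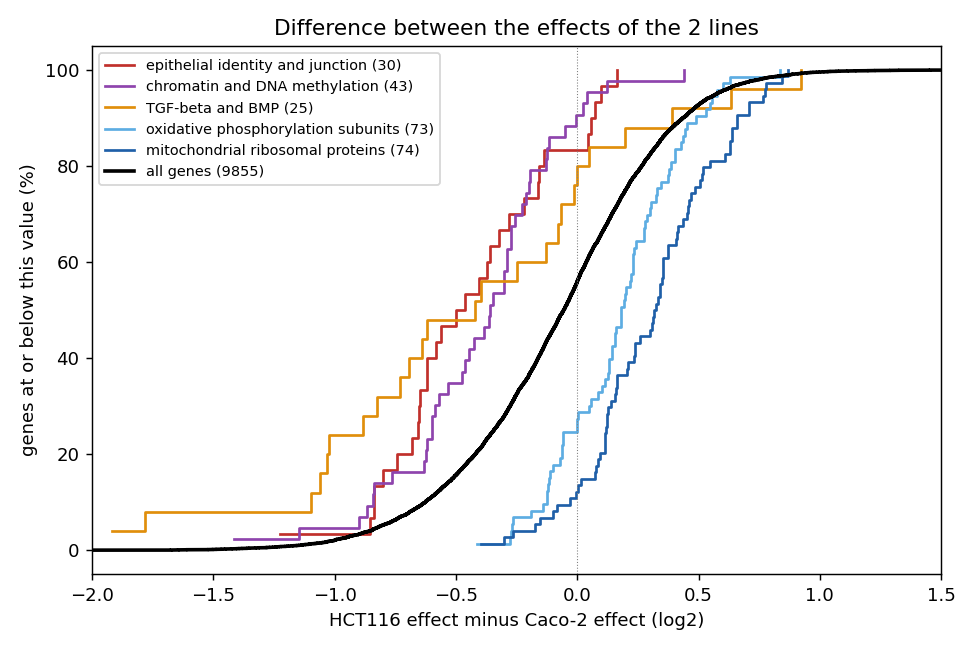
Cumulative share of genes (y axis, percent) at or below a given HCT116 effect minus Caco-2 effect (x axis, log2) for 5 gene lists and all 9855 genes in black. Mitochondrial ribosomal proteins lie to the right of all genes, with a median of 0.32 against -0.06, and epithelial genes to the left, with a median of -0.48.

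Some lists had medians of the same sign in both lines. NF-kB and cytokine genes had medians of -0.16 and -0.49, with 10 of 16 lower in both and 0 higher in both, beside 2940 and 2404 of all genes. RELB stood at 6.67, 6.42, 7.49 and 6.80 and ICAM1, an adhesion molecule, at 7.34, 6.99, 6.05 and 5.56, while CXCL8 had effects of opposite sign. Interferon-stimulated genes had medians of -0.22 and -0.13, with 11 of 23 lower in both. OASL stood at 8.04, 7.22, 7.56 and 7.13 and ISG20, an exonuclease, at 7.13, 6.58, 6.40 and 5.71, but IFIT1 was at -0.30 and 0.76. NRF2 and oxidative stress genes had medians of -0.10 and -0.028, with 13 of 28 lower in both, but the HCT116 median lay above that of all genes, -0.049. The 13 genes included the heme oxygenase gene HMOX1 at 8.03, 7.20, 8.92 and 8.36. Interferon, NF-kB and NRF2 medians were below 0 in both lines under all 9 settings. The DNA end joining list of XRCC4 did not follow it: 4 of 13 were higher in both, 4 lower in both, and the list median of the mean effect was 0.0. Nor did the semaphorin list of SEMA3A, where 5 of 16 were higher in both and 6 lower in both, although its receptor gene NRP1 stood at 6.58, 7.48, 6.44 and 6.71. Of 9 measured genes reported as BORIS targets, 2 were higher and 4 lower in both lines. HMGA2 stood at -0.40 and -1.34, PIM1 at -0.50 and -0.57 and RBL2 at 0.34 and 0.37. The 2 other bright probe sets of HMGA2 were also lower in both lines. They lay between -0.34 and -0.05 in Caco-2 and between -0.67 and -0.62 in HCT116, so its 2-fold HCT116 effect rests on 1 probe set. Of 11 cancer-testis genes, 5 were higher in both, with SPA17 at 0.49 and 1.2.

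Gene length separated the lines. Ordered by genomic length, the effect of BORIS siRNA ran upward with length in Caco-2, with a Spearman coefficient of 0.31 over 9853 genes, and downward in HCT116, with -0.11. For the HCT116 effect minus the Caco-2 effect this coefficient was -0.28. In the shortest quintile, up to 9331 bases, the median effect was -0.086 in Caco-2 and 0.003 in HCT116, and in the longest, from 84630 bases, 0.12 and -0.14. The share of genes higher in Caco-2 and lower in HCT116 was 14.97% in the shortest quintile and 42.5% in the longest, and the reverse share 33.2% and 8.57%. Median length was 104922 bases for the 13 opposite genes, 44386 for the genes higher in both, 13713 for those lower in both and 28885 for all. With quantile normalization, loess, averaged probe sets or without _x_at and _s_at probe sets, the coefficient of the difference lay between -0.27 and -0.26. Genes in these correlations share their arrays and are not independent. Promoter GC content ran with the HCT116 effect at a Spearman coefficient of -0.19 and with the Caco-2 effect at -0.001, over 8211 genes.

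**Figure D5:**
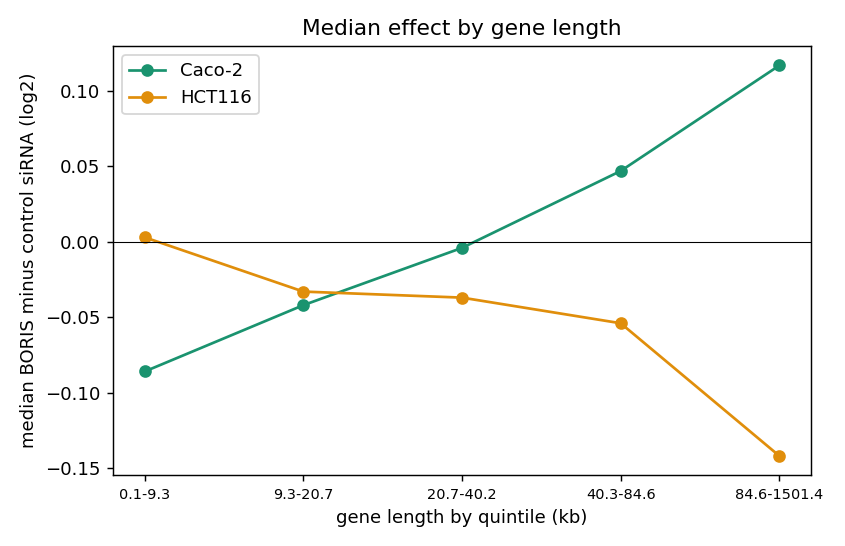
Median BORIS minus control siRNA (y axis, log2) in quintiles of genomic length (x axis, kilobases), Caco-2 in green and HCT116 in orange, 1 array per group, no error bars. Caco-2 runs from -0.086 to 0.12 and HCT116 from 0.003 to -0.14.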

How the data were processed

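RNA from 4 samples, 1 for each of 2 cell lines and 2 siRNAs, was hybridised to PrimeView arrays. The authors deposited log2 values per probe set, a unit inferred from their range; their background correction, normalization and summarisation are not given in the sources used. Array medians lay between 5.46 and 5.48. Of 49395 probe sets, 44988 were paired with 1 gene by the platform's annotation table, 1832 with several and 2569 were not listed; 102 were control probe sets. Entrez IDs were matched to RefSeq (GRCh38.p14), which changed 0 symbols. Promoters came from RefSeq; SEMA3A was not among those used.

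Effects, their mean and their difference were computed in Python 3.11.15 (pandas 2.3.3, SciPy 1.17.1). Where the dimmer value of a pair lay below background, only a lower bound is given, counted from the background level to the brighter value. The test of a shared effect used lmFit and eBayes with trend from limma 3.58.1 (R 4.3.3), with cell line as block, on 11165 genes, called at a Benjamini-Hochberg adjusted p under 0.05. In 10 simulated sets of 11165 genes it recovered 41.9% of 2-fold and 98.5% of 4-fold changes shared by the lines, and 8.52% of calls were false. Each set held 100 genes changed 2-fold and 100 changed 4-fold, whereas in the data 2 genes were 2-fold higher in both lines and 0 lower. The adjusted p depends on how many genes change, so these recovery shares do not carry over to the data. The difference between lines had no test.

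The text names every gene at 1.5-fold or more in both lines, the 10 per line and direction with the largest difference of effects among genes at 2-fold in 1 line and under 1.2-fold (log2 0.263) in the other, CTCFL and CTCF, and members drawn from the 4 of each list with the largest mean effect and the 4 with the largest difference. The members and the 35 lists were chosen with earlier results of these data known. Nothing says that the samples came from separate cultures. Alternatives were no filter, a background filter, averaged probe sets, no _x_at and _s_at probe sets, quantile normalization, loess, values raised to background, 16 added on the linear scale and, for limma, no trend, a robust fit and a fit on the 9855 genes alone.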

Additional observations from a re-analysis of the deposited data

Results flagged for a closer look

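The effects of the lines had opposite signs at 1.5-fold or more in 17 genes; each gene has 1 array per group, so the differences were not tested. As HCT116 effect minus Caco-2 effect on the log2 scale, they were -1.24 for AFAP1, -1.61 for CCDC9B, -1.23 for CDH1, -1.52 for CMTM3, -1.40 for CXCL8, -1.65 for FAM43A, -1.67 for IL17RD, -1.36 for KATNAL1, -1.40 for LRBA, -1.36 for PDE9A, -1.65 for SORL1, -1.43 for SVIL and -1.55 for TNRC6C. In the other direction they were 1.33 for B4GALNT1, 1.63 for KRTAP5-2, 1.55 for NRG1 and 1.32 for ZNF358.

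Control probe sets outside the gene comparison also differed between siRNAs. In HCT116, the BORIS siRNA array exceeded the control array by 0.87 for poly-A spike-ins and by 0.34 for hybridization controls, beside -0.07 and 0.01 in Caco-2.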

How the results depend on the processing

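Counts of genes past a fold moved by over 1.5 times under several settings; the cause was not tested except where the setting itself tests more genes or shrinks dim differences. Without the filter on dim genes, 71 genes were 1.5-fold higher and 38 lower in both lines, 25 and 14 were opposite, 180 and 320 had an HCT116 effect at least 1 above or below that of Caco-2, 37 were 2-fold higher in HCT116 alone, 24 higher and 4 lower in Caco-2 alone, and Pearson's r was 0.087. The background filter gave 20 opposite genes higher in Caco-2. With averaged probe sets 30 genes were higher in both lines, 4 and 0 opposite, 22 and 64 differed by 1 or more, 9 were higher and 23 lower in HCT116 alone and 4 higher in Caco-2 alone; the differences of SEMA4D and TPM1 turned to 0.02 and 0.05. Without _x_at and _s_at probe sets, 2 opposite genes were higher in HCT116 and TPM1 stood at 0.0. Quantile normalization gave 82 limma calls, 8 opposite genes higher in Caco-2, 75 and 135 differing by 1 or more and 33 higher in HCT116 alone. Loess gave 112 limma calls and 28 genes higher in HCT116 alone. With 16 added on the linear scale 24 genes were higher and 9 lower in both lines, 6 and 0 opposite, 18 and 117 differed by 1 or more, 4 were higher and 45 lower in HCT116 alone and 3 higher in Caco-2 alone. The limma count stayed at 0 under the other settings run.

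For named genes, 2270 values stayed close to the main one, 247 moved and 3 reversed. The median effect of all genes moved by under 0.1 under every setting. Each BORIS siRNA array was set against the control siRNA array of its own line, and the cell line was the only block. The labels give no replicate numbers for any further pairing. Leaving out an array was not run, since it leaves the siRNA fit no residual degree of freedom. Signal near background limits what dim genes show.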
